A study of Mus musculus with 6 samples.

Results

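The genes described here are 7 that mark B lymphocytes and carry their antigen receptor signal: Cd79a, Cd79b, Ms4a1, Pax5, Blk, Cr2 and Cd22. Every probe set of an Affymetrix mouse genome array whose annotated symbol is one of these genes was taken, which gave 10 probe sets of the 45101 in the table, for 7 of 18193 genes. Ms4a1, Pax5 and Cd22 had 2 probe sets each and the other genes had 1. Their values were set beside those of immunoglobulin and plasma cell genes, so that B cell surface and lineage transcripts could be read apart from transcripts of antibody secretion.

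The series holds 6 arrays from whole lungs of adult BALB/c mice, each dosed through the trachea with IL-13, a cytokine of type 2 immunity, at 2 to 3 µg a day for 7 days and killed 24 h after the last dose. The first group, IL4R KO + SMP8-IL4R, had no IL-4 receptor gene (IL4R -/-) but was heterozygous (+/-) for a receptor transgene driven by the smooth muscle promoter SMP8, and is called SMP8-IL4R below. The second group, IL4R KO, was IL4R -/- without the transgene, and the third, WT, was IL4R +/+. Each group gave 2 RNA pools of 4 mice each, and each pool was read on 1 array. No group went without IL-13, so what IL-13 itself did is not measured here. The promoter is described as specific to smooth muscle, so by design immune cells lack the receptor in both the SMP8-IL4R and the IL4R KO groups, which are called receptor-deficient below; transgene expression elsewhere was not tested.

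A B cell recognises antigen through membrane immunoglobulin, which has no signalling tail of its own and passes its signal through the paired chains CD79A and CD79B. Src family kinases such as BLK act next, the complement receptor CR2 lowers the threshold for activation, and CD22 recruits phosphatases that damp the signal. PAX5 holds the B cell programme in place; when a B cell becomes a plasma cell, PAX5 and much of the surface set are switched off while immunoglobulin transcripts and the secretory machinery rise. Lung B cells lie in the blood, in the tissue and in lymphoid follicles around the airways.

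The upstream promoter sequence was available for 4 of the 7 genes from RefSeq (build GRCm38.p6, the reference strain and not BALB/c), and it is shown because these genes are classical targets of B lineage transcription factors. Each line gives the 250 bases before the annotated start, 5′ to 3′ on the gene's own strand. Capitals mark matches on either strand to the letters CAGGTG, an E-box bound by E2A, and to CCCNNGGG, a core bound by EBF1. The windows are chr7:24897247-24897496 (plus strand) for Cd79a, chr4:44710695-44710944 (minus strand) for Pax5, chr1:195176720-195176969 (minus strand) for Cr2 and chr7:30879029-30879278 (minus strand) for Cd22. Cd79b, Ms4a1 and Blk are named only.
Cd79a: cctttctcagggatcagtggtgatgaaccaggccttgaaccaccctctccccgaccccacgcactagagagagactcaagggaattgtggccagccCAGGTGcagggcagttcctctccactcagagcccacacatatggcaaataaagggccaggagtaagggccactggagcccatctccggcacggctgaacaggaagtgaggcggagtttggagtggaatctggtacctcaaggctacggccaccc
Pax5: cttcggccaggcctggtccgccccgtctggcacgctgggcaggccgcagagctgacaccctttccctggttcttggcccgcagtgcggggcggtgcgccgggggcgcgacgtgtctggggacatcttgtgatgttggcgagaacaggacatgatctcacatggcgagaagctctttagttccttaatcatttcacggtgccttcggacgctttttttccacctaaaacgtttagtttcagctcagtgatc
Cr2: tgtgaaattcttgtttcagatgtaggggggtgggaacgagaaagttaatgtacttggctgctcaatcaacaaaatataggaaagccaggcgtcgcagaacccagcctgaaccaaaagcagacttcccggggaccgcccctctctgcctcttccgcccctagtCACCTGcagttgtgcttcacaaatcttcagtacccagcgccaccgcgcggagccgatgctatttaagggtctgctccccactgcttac
Cd22: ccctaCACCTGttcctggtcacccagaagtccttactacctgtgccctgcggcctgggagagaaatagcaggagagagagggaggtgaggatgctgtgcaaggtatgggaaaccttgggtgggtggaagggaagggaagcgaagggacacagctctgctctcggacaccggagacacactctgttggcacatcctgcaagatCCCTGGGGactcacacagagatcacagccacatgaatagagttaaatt

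CAGGTG was found in 3 of the 4 windows, those of Cd79a, Cr2 and Cd22, against 17.2% of the 32851 mouse promoter windows of the same length. It lay at bases -154 to -149 of Cd79a, -88 to -83 of Cr2 and -245 to -240 of Cd22, counted from the start site. CCCNNGGG was found in the Cd22 window alone, at bases -48 to -41, against 11.8% of all windows. The octamer ATTTGCAT and a PAX5 half-site, GCGTGAC, were in none of the 4 windows, against 1.6% and 1.78% of all windows. The short ETS core GGAA, left in lower case, was in all 4 and in 93.4% of all windows. None of the motifs overlapped another. These matches describe letters in a window and not binding.

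The arrays had near-equal distributions, with medians between 7.08 and 7.11 on the log2 scale. Transcripts of alveolar and airway epithelium (Sftpc, Sftpb, Scgb1a1 and Ager) were bright on every array, with log2 of their summed signal between 16.4 and 16.5. IL4R KO pool 1 and WT pool 2 also carried liver transcripts: Alb read 12.26 and 11.81 there and between 5.68 and 5.93 on the other 4 arrays. IL4R KO pool 2 was low for Y-linked transcripts: Eif2s3y read 4.27 there and between 8.49 and 9.18 elsewhere. None of the 3 Il4ra probe sets passed in any comparison in limma, although at each of them some groups did not overlap. The brightest, 1423996_a_at, read 9.98 and 9.84 in SMP8-IL4R, 9.35 and 9.55 in IL4R KO, and 9.64 and 9.81 in WT lungs, with an adjusted p of 0.279 for IL4R KO against WT in limma, so the SMP8-IL4R pools lay highest and the IL4R KO pools lowest. At 1421034_a_at the values were 8.94 and 8.80 in SMP8-IL4R, 8.92 and 8.93 in IL4R KO, and 9.23 and 9.29 in WT lungs, with all 4 receptor-deficient pools below WT. At 1447858_x_at the separation was slight, with SMP8-IL4R at 6.7707 and 6.9542 and WT at 7.1420 and 6.9549. Where these probes lie relative to the deleted part of the gene is not given in the sources used here, so they check nothing about the labels. Pool 2 minus pool 1, taken over all probe sets, had an SD of 0.161 for SMP8-IL4R lungs, 0.308 for IL4R KO lungs and 0.209 for WT lungs.

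All values below are the authors' RMA values on the log2 scale, in which 1 unit is a doubling of signal. A difference passed when its Benjamini-Hochberg adjusted p from limma, over 45037 probe sets, was under 0.05. With 2 pools a group, a p-value here rests on how far pools of one genotype lie apart. In limma that spread comes partly from the probe set itself and partly from all probe sets. Because these are bulk samples, fewer cells of a type and less RNA per cell cannot be told apart.

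None of the 10 probe sets passed in any of the 3 comparisons. The 4 measured transcripts of the immunoglobulin constant chain and J chain list did differ from WT in both receptor-deficient groups. In IL4R KO against WT lungs, 0 of 10 passed, beside 1.58% of all probe sets, and 2 of 10 (Cd79a and Blk) had an unadjusted p under 0.05, beside 16.0% of all. The point estimates lay above 0 for all 7 genes, with a median of 0.54 log2 units against 0.0033 over all 18193 genes. That median rested on 1 array: IL4R KO pool 2 was the highest of the 6 arrays for each of the 7 genes at its brightest probe set, a position it held for 29.1% of all genes.

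**Figure D1:**
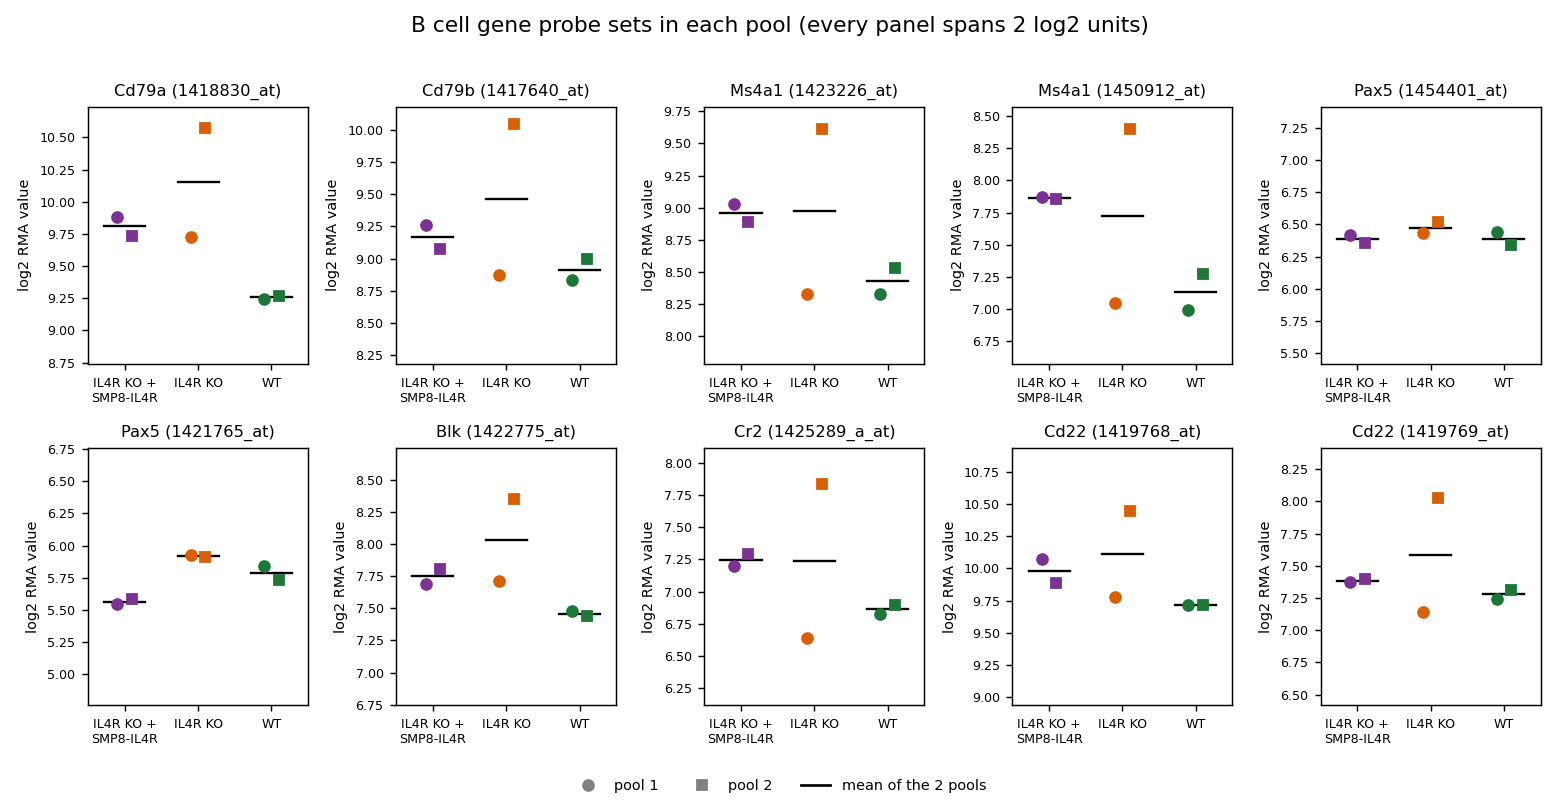
Log2 RMA value of each of the 10 probe sets in each pool; circles are pool 1, squares pool 2, bars the mean of the 2 pools, and every panel spans the same number of log2 units. IL4R KO pool 2 stands above the other 5 arrays for all but the dimmer Pax5 probe set, and SMP8-IL4R pools lie above both WT pools for the 8 probe sets other than those of Pax5.

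Cd79a, one of the 2 signalling chains of the B cell receptor, read 9.88 and 9.74 in SMP8-IL4R lungs, 9.73 and 10.58 in IL4R KO lungs, and 9.24 and 9.27 in WT lungs. All 4 receptor-deficient pools lay above both WT pools. IL4R KO minus WT was 0.89 ± 0.25 log2 units (SE, n = 2 pools a group; 95% interval 0.31 to 1.48), with an adjusted p of 0.159 in limma. SMP8-IL4R minus WT was 0.55, with an interval of -0.03 to 1.14 and an adjusted p of 0.350.

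Cd79b, its partner chain, read 9.26 and 9.08 in SMP8-IL4R lungs, 8.87 and 10.05 in IL4R KO lungs, and 8.84 and 8.99 in WT lungs. IL4R KO pool 1 sat between the WT pools, and pool 2 above every other array, so these groups overlapped. The difference of IL4R KO from WT was 0.55 ± 0.33 (SE), with an interval of -0.25 to 1.34 and an adjusted p of 0.474 in limma.

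Ms4a1, which encodes the surface protein CD20, was measured by 2 probe sets. At 1423226_at it read 9.03 and 8.89 in SMP8-IL4R, 8.33 and 9.61 in IL4R KO, and 8.33 and 8.53 in WT lungs. At 1450912_at it read 7.87 and 7.86 in SMP8-IL4R, 7.04 and 8.40 in IL4R KO, and 7.00 and 7.27 in WT lungs. IL4R KO pool 1 lay near the WT pools and pool 2 above every other array, and SMP8-IL4R lay above WT without overlap. IL4R KO minus WT was 0.54 ± 0.36 at the brighter probe set and 0.59 ± 0.38 at the other, with adjusted p of 0.516 and 0.502 in limma. SMP8-IL4R minus WT was 0.53 and 0.73, with adjusted p of 0.535 and 0.421.

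Blk, a Src family kinase downstream of the receptor, read 7.69 and 7.81 in SMP8-IL4R lungs, 7.71 and 8.35 in IL4R KO lungs, and 7.48 and 7.44 in WT lungs. Both receptor-deficient groups lay above WT without overlap, with mean differences below the gap of 0.64 between the IL4R KO pools. Its IL4R KO minus WT difference was 0.57 ± 0.19, with an interval of 0.11 to 1.02 and an adjusted p of 0.224 in limma. SMP8-IL4R minus WT was 0.29, with an adjusted p of 0.516.

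Cr2, the receptor for C3d fragments on mature and follicular B cells and on follicular dendritic cells, read 7.20 and 7.29 in SMP8-IL4R lungs, 6.64 and 7.83 in IL4R KO lungs, and 6.83 and 6.90 in WT lungs. The IL4R KO pools were the lowest and the highest of the 6 arrays. Their mean exceeded that of WT by 0.37 ± 0.33, with an interval of -0.42 to 1.17 and an adjusted p of 0.629 in limma.

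Cd22, the inhibitory sialic acid receptor, read 10.07 and 9.88 in SMP8-IL4R, 9.78 and 10.45 in IL4R KO, and 9.71 and 9.72 in WT lungs at 1419768_at. At 1419769_at it read 7.37 and 7.40 in SMP8-IL4R, 7.14 and 8.02 in IL4R KO, and 7.25 and 7.31 in WT lungs. The probe sets disagreed on IL4R KO pool 1, which was above both WT pools at the first and below both at the second. The IL4R KO means exceeded the WT means by 0.40 ± 0.20 and 0.30 ± 0.25, with adjusted p of 0.393 and 0.597 in limma.

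Pax5, the transcription factor that maintains B cell identity, was dim: neither of its probe sets exceeded the median of all values, 7.10, on any array, while the other 8 did on at least 2. At 1454401_at it read 6.41 and 6.35 in SMP8-IL4R, 6.43 and 6.52 in IL4R KO, and 6.44 and 6.34 in WT lungs. At 1421765_at it read 5.54 and 5.59 in SMP8-IL4R, 5.93 and 5.91 in IL4R KO, and 5.84 and 5.74 in WT lungs. The whole range over the arrays was 0.18 and 0.38, against 0.74 to 1.41 for the other 8 probe sets. At 1421765_at SMP8-IL4R minus IL4R KO was -0.35, with an interval of -0.54 to -0.17 and an adjusted p of 0.279 in limma, and at 1454401_at it was -0.09.

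Counted by separation of the pools, IL4R KO lay wholly above WT at 4 of 10 probe sets (Cd79a, Blk, Cd22 at 1419768_at and Pax5 at 1421765_at), beside 22.1% of all probe sets, and wholly below it at none, beside 23.7%. SMP8-IL4R lay wholly above WT at 8 of 10, all but those of Pax5, beside 27.4% of all probe sets, and wholly below at 1 (Pax5 at 1421765_at), beside 27.2%. SMP8-IL4R lay wholly below IL4R KO at both Pax5 probe sets, beside 22.1%, and wholly above it at none, beside 20.0%. The steps between the SMP8-IL4R and WT means were small: 0.11 to 0.73 at the 8 probe sets, and 0 of 10 passed in limma, beside 1.04% of all probe sets. An unadjusted p under 0.05 was reached by 1 of 10 (Pax5 at 1421765_at), beside 15.3% of all.

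Between the receptor-deficient groups, SMP8-IL4R minus IL4R KO was -0.34 for Cd79a (interval -0.93 to 0.24), -0.29 for Cd79b (-1.09 to 0.51) and -0.28 for Blk (-0.73 to 0.18). It was -0.14 for Cd22, -0.01 for Ms4a1 and 0.01 for Cr2 at their brightest probe sets. No probe set of the 10 passed in limma, beside 0.0155% of all probe sets, and 1 had an unadjusted p under 0.05 (Pax5 at 1421765_at), beside 11.3%. The intervals reached -0.88 to 0.86 for Ms4a1 and -0.79 to 0.81 for Cr2, so these arrays do not show that the groups had like amounts. The median over the 7 genes was -0.14 in this comparison and 0.29 for SMP8-IL4R minus WT, against -0.018 and -0.0047 over all genes. The comparisons share arrays, so their values are not independent of each other.

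**Figure D2:**
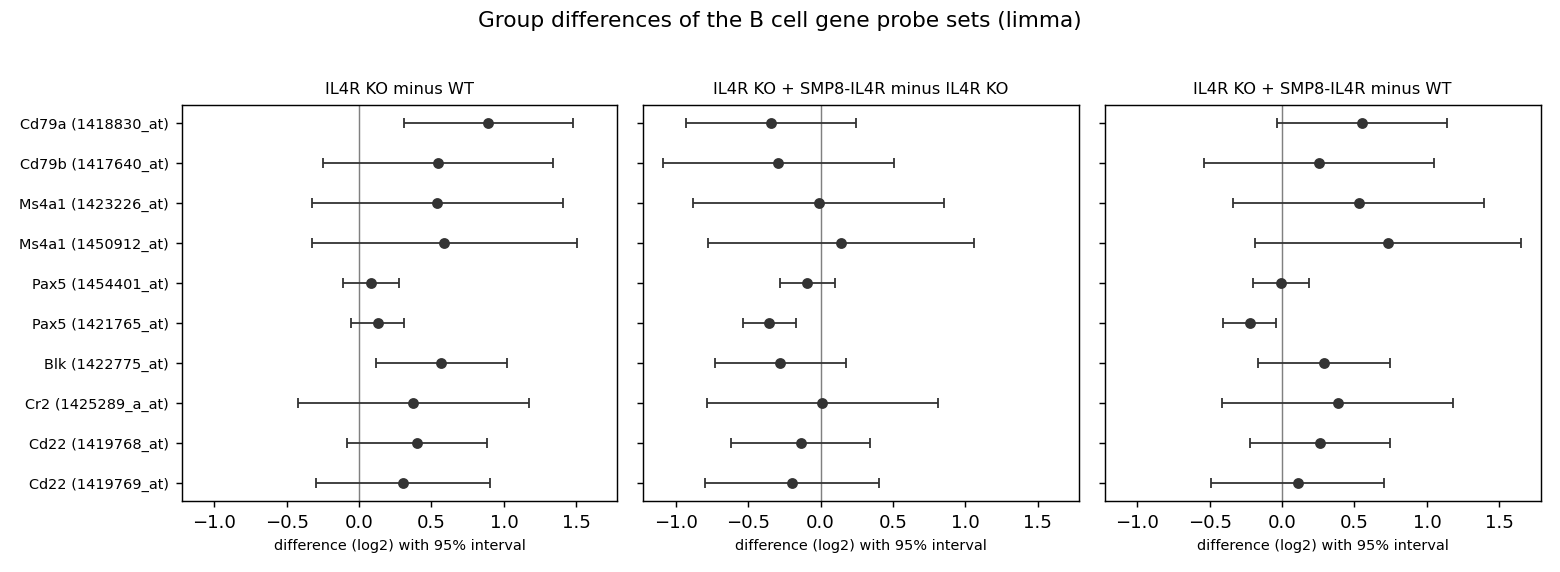
Group differences of the 10 probe sets in limma (log2 units, points) with 95% intervals (bars), 1 panel a comparison. In IL4R KO minus WT the intervals of Cd79a and Blk lie above 0, and the only intervals wholly below 0 are those of the dimmer Pax5 probe set, 1421765_at, in both comparisons that involve SMP8-IL4R.

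The 2 IL4R KO pools lay far apart for all of these genes but Pax5. Pool 2 exceeded pool 1 by 0.85 for Cd79a, 1.17 for Cd79b, 1.29 and 1.36 for Ms4a1, 0.64 for Blk, 1.19 for Cr2, and 0.67 and 0.88 for Cd22, and differed by 0.08 and -0.01 for Pax5. A gap over 0.5 in that direction was seen in 8 of the 10 probe sets, beside 1.51% of all, and a gap over 1 in 4 of them, beside 0.0711%. The pools of SMP8-IL4R lungs differed by -0.19 to 0.11 and those of WT lungs by -0.11 to 0.28. These shares describe 2 arrays and are not a test.

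Which IL4R KO pool was used decided the size of the difference from WT. Without pool 1, 8 of the 10 probe sets passed in limma, all but those of Pax5, beside 2.24% of all probe sets. Cd79a then differed from WT by 1.32, Ms4a1 by 1.18, Cd79b by 1.13, Cr2 by 0.97, Blk by 0.89 and Cd22 by 0.73, with adjusted p between 0.0044 and 0.0324. Without pool 2, 0 of 10 passed, and the differences were 0.47 for Cd79a, 0.25 for Blk, 0.06 for Cd22, -0.04 for Cd79b, -0.10 for Ms4a1 and -0.22 for Cr2. Leaving out both arrays with liver transcripts, which removes IL4R KO pool 1 too, gave differences up to 1.41. In each of these fits the remaining IL4R KO pool was assumed to vary like the pools of the other groups. The fit without the liver-bearing arrays also leaves 1 WT pool, so its only spread between replicates is that of the 2 SMP8-IL4R pools.

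The 7 genes moved together across the 6 arrays, apart from Pax5. Pearson's r of each gene with the mean of the other 6 was 0.934 for Cd79a, 0.971 for Cd79b, 0.959 for Ms4a1, 0.938 for Blk, 0.927 for Cr2 and 0.986 for Cd22, and 0.607 for Pax5. Over the 5 arrays without IL4R KO pool 2 these were 0.751, 0.877, 0.910, 0.684, 0.750 and 0.936 in the same order, and -0.216 for Pax5. The points share their arrays and the normalisation across them, so the values describe this set of arrays.

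Among 442 other genes that spanned more than 1 log2 unit and exceeded the median of all values on at least 2 arrays, the 10 whose pattern was most like the mean of the 7 were Cxcr5, Ms4a4b, Fcmr, Bank1, Spib, Gpr18, Ighv14-2, Cd3g, Ltb and Trbv1, with r between 0.963 and 0.995 over 6 arrays. Without IL4R KO pool 2 their r was 0.801 to 0.993. Cxcr5, the chemokine receptor that guides B cells into follicles, was the closest: 7.18 and 7.05 in SMP8-IL4R, 6.84 and 7.84 in IL4R KO, and 6.60 and 6.67 in WT lungs. Fcmr, a receptor for IgM, read 9.45 and 9.40 in SMP8-IL4R, 9.08 and 10.36 in IL4R KO, and 8.73 and 8.96 in WT lungs. Spib, an ETS family factor of B cells, had the highest r of the 10 without IL4R KO pool 2, 0.993. The list also held Ighv14-2, an immunoglobulin variable segment, and T cell receptor genes: Cd3g, a chain of CD3, and Trbv1, a variable segment.

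**Figure D3:**
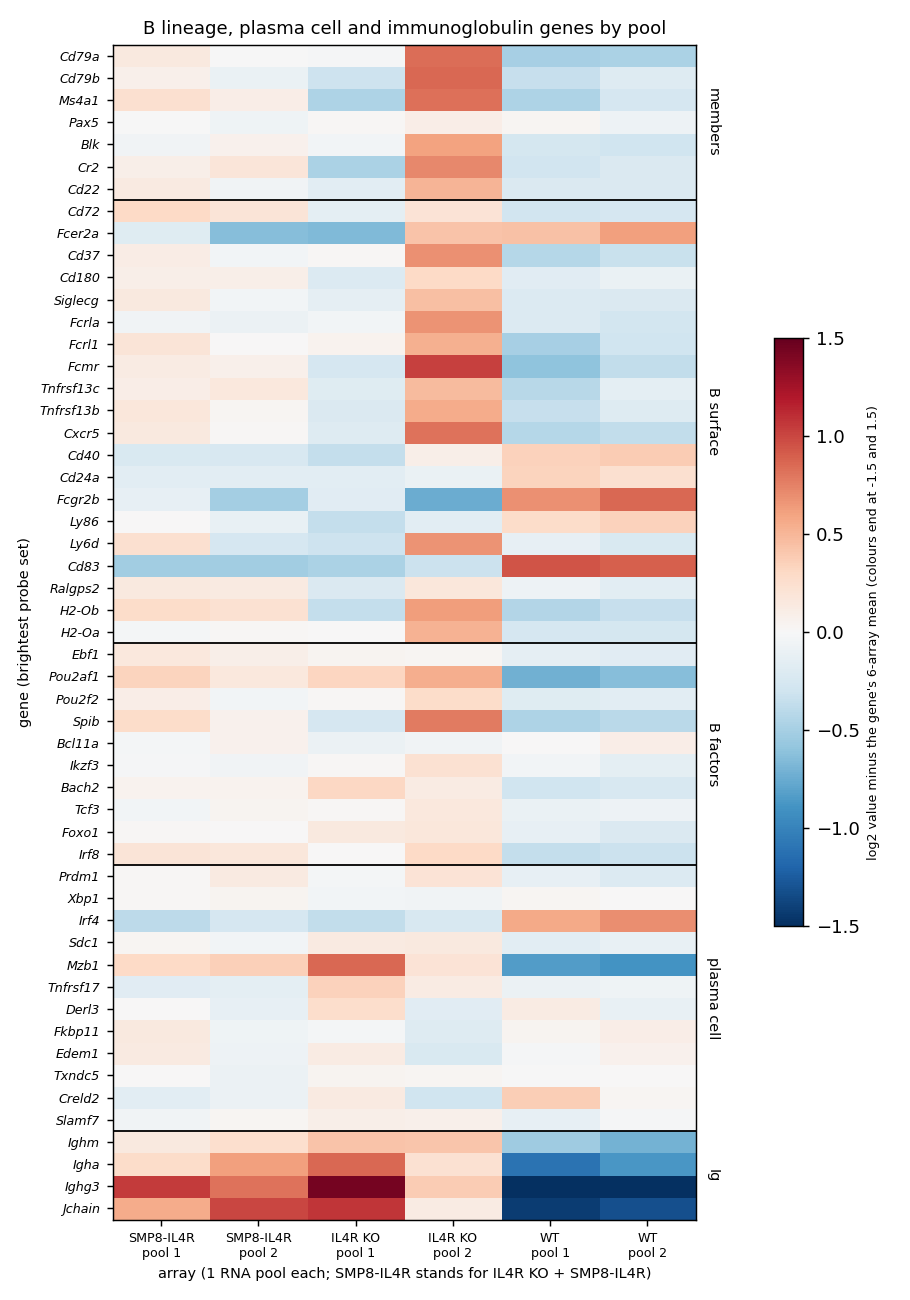
Log2 value of each gene at its brightest probe set minus its mean over the 6 arrays, for the 7 genes, other B cell surface genes, B lineage factors, plasma cell genes and immunoglobulin genes; red is above and blue below the gene's mean, 1 column a pool. The rows of the 7 genes are reddest in IL4R KO pool 2, whereas Jchain, Ighg3, Igha and Mzb1 are reddest in IL4R KO pool 1 (Igha and Jchain also high in SMP8-IL4R pool 2) and blue in both WT pools.

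Of 20 other B cell surface genes measured, 0 were higher and 3 lower in IL4R KO than in WT lungs in limma (7 higher and 5 lower at an unadjusted p under 0.05), with a median difference of 0.36. Over all genes 0.797% passed higher and 1.49% lower. Cd83, a surface marker of activated B cells and dendritic cells, read 8.77 and 8.77 in SMP8-IL4R, 8.83 and 8.98 in IL4R KO, and 10.24 and 10.20 in WT lungs. It fell by 1.32 in IL4R KO (adjusted p = 0.0011 in limma) and by 1.45 in SMP8-IL4R lungs against WT (adjusted p = 0.00078). Fcgr2b, the inhibitory Fc receptor of B cells and myeloid cells, fell by 1.23, and Ly86 (MD-1), the partner of CD180, fell by 0.57, both with an adjusted p of 0.046. Both calls were lost with only the 4 arrays compared and when either SMP8-IL4R pool or either WT pool was left out. That of Fcgr2b was also lost with the median probe set and with an intensity trend, and that of Ly86 with the replicate block, without IL4R KO pool 1 and without the liver-bearing arrays. Those 3 genes are also expressed by macrophages or dendritic cells. Of 7 dendritic cell markers measured, only the factor Batf3 passed in IL4R KO minus WT, and it fell by 1.78 (adjusted p = 0.0023 in limma). Cd209a stood at -0.60 there (adjusted p = 0.076). In SMP8-IL4R minus WT both passed in limma, Batf3 at -1.71 (adjusted p = 0.0030) and Cd209a at -0.86 (adjusted p = 0.032), while 4 of the 7 markers lay above 0. In IL4R KO minus WT 5 of the 7 markers lay above 0, with a median of 0.15. What part such cells had in the falls of the 3 surface genes was not tested.

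The counts for this list also depended on the IL4R KO pool. Without pool 1, 10 of its genes passed higher and 2 lower than WT; without pool 2, 0 passed higher and 5 lower. Fcer2a, the low affinity IgE receptor CD23, was named after its values were seen, because it ran against the 7 genes: 8.58 and 8.13 in SMP8-IL4R, 8.10 and 9.19 in IL4R KO, and 9.21 and 9.38 in WT lungs. Its 4 receptor-deficient pools lay below both WT pools, while its gap between the IL4R KO pools, 1.09, ran the same way as that of the 7 genes. IL4R KO minus WT was -0.65 and SMP8-IL4R minus WT was -0.94, with adjusted p of 0.399 and 0.262 in limma.

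Of 15 genes measured in the coreceptor and signalling list (Syk, Btk, Blnk, Plcg2, Cd81 and others), 0 passed in any comparison in limma (6 at an unadjusted p under 0.05 in IL4R KO minus WT), and the median of IL4R KO minus WT was 0.12. The 4 with the lowest p were Pik3ap1 (BCAP), an adaptor to PI3 kinase, at 0.69 (adjusted p = 0.064), Malt1, which activates NF-kappaB, at -0.57 (adjusted p = 0.088), Inpp5d (SHIP-1), a lipid phosphatase, at 0.32, and Prkcb, a protein kinase C, at 0.34. The dimmer probe set of Pik3ap1 stood at only 0.19 (adjusted p = 0.374 in limma). Those of Malt1 stood at -0.58 and -0.29, that of Inpp5d at 0.32, and those of Prkcb at 0.35 and -0.09.

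Among 10 B lineage transcription factors other than Pax5, 1 passed higher than WT in IL4R KO lungs in limma and 0 lower. At an unadjusted p under 0.05, 6 were higher and 0 lower, beside 16.0% of all probe sets in either direction. The median difference was 0.32. By separation of the pools, 9 lay wholly above WT, beside 22.1% of all probe sets, and 1 wholly below, beside 23.7%. In SMP8-IL4R lungs 8 lay wholly above WT, beside 27.4%, and 0 below, beside 27.2%. Pou2af1 (OBF-1), the coactivator that octamer factors use at immunoglobulin promoters, read 9.28 and 9.09 in SMP8-IL4R, 9.26 and 9.49 in IL4R KO, and 8.21 and 8.30 in WT lungs. All 4 receptor-deficient pools lay above both WT pools. It rose by 1.12 in IL4R KO (adjusted p = 0.0061 in limma) and by 0.93 in SMP8-IL4R lungs (adjusted p = 0.016), and both calls were lost when either WT pool was left out, that in SMP8-IL4R lungs also without either SMP8-IL4R pool. Bach2, a repressor that delays plasma cell differentiation, was at 0.49 in IL4R KO minus WT (adjusted p = 0.056), Irf8 at 0.49 (0.092) and Foxo1 at 0.33 (0.103), each at its brightest probe set. The dimmer probe set of Irf8 did pass in limma, at 0.63 in IL4R KO minus WT (adjusted p = 0.033). In SMP8-IL4R minus WT it also passed, at 0.71 (adjusted p = 0.027), whereas the brightest stood at 0.52 (adjusted p = 0.094). The dimmer probe sets of Bach2 and Foxo1 did not pass in either comparison. Precursor B cell genes (6 measured) and germinal centre genes (6 measured) had 0 passing in all 3 comparisons; at an unadjusted p under 0.05 in limma there were 0 precursor genes and 2 germinal centre genes in IL4R KO minus WT, Gcsam at 0.50 and Basp1 at -0.38.

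The measured transcripts of the immunoglobulin constant chain and J chain list passed where the 7 B cell genes did not. The difference between the sets was not tested. Of 12 genes listed, 4 were measured by a probe set with 1 gene symbol: Ighm, Igha, Ighg3 and Jchain. Ighd, Ighg1, Ighg2b, Ighg2c, Ighe, Igkc, Iglc1 and Iglc2 were not, so nothing is said of them here. All 4 measured genes of that list passed higher in SMP8-IL4R than in WT lungs, beside 0.297% of all genes passing higher and 1.20% lower, and all 4 did so in IL4R KO against WT lungs. Jchain, which joins IgM and IgA chains for secretion, read 12.25 and 12.69 in SMP8-IL4R, 12.76 and 11.82 in IL4R KO, and 10.27 and 10.38 in WT lungs. Ighg3 read 10.68 and 10.44 in SMP8-IL4R, 11.06 and 10.01 in IL4R KO, and 7.67 and 7.90 in WT lungs. Against WT, Jchain rose by 1.97 in IL4R KO and 2.15 in SMP8-IL4R lungs, and Ighg3 rose by 2.75 and 2.77, with adjusted p between 0.0115 and 0.0315 in limma.

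Igha, the IgA constant chain, read 13.48 and 13.82 in SMP8-IL4R, 14.06 and 13.43 in IL4R KO, and 12.10 and 12.32 in WT lungs. It rose by 1.53 in IL4R KO and by 1.44 in SMP8-IL4R lungs against WT (adjusted p = 0.026 and 0.040 in limma). Ighm, the IgM constant chain that is both secreted and part of the B cell receptor, rose by 1.04 and 0.82 at its brightest probe set (adjusted p = 0.0038 and 0.012). Its other probe sets lay between -0.67 and 1.73 in IL4R KO minus WT, and its value with the median of its probe sets was -0.25, so its direction depends on the probe set. The other Ighg3 probe sets differed by 0.09 to 0.70. Constant chains share sequence, so probe sets for them may read related chains.

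In the IL4R KO pools Ighg3, Jchain and Igha ran against the B cell genes other than Pax5. The variable segment Ighv14-2, outside this list, ran with the B cell genes, at 8.18 in IL4R KO pool 1 and 9.38 in pool 2. Pool 2 minus pool 1 was -1.05 for Ighg3, -0.94 for Jchain, -0.63 for Igha and -0.015 for Ighm. At the brightest probe sets 0 of 4 were higher in pool 2, whereas 7 of 7 B cell genes were. Ighm and Pax5 (0.08 and -0.01 at its probe sets) lay near 0 and show no opposite movement. The share of all genes higher in pool 2 was not counted. The mean of the 4 immunoglobulin genes, each centred on its 6 arrays, was 0.51 and 0.67 in SMP8-IL4R, 0.95 and 0.29 in IL4R KO, and -1.25 and -1.16 in WT lungs. The mean of the 7 genes was 0.09 and 0.02 in SMP8-IL4R, -0.20 and 0.64 in IL4R KO, and -0.29 and -0.25 in WT lungs. The immunoglobulin calls did not need either IL4R KO pool: all 4 genes passed in IL4R KO minus WT without pool 1 and also without pool 2. The calls of Jchain, Ighg3 and Igha in IL4R KO minus WT were lost when either WT pool was left out, and those of Jchain and Igha also when either SMP8-IL4R pool was and with only the 4 arrays compared. Jchain was lost without the liver-bearing arrays as well, and Ighg3 with the median probe set, under which Ighm turned to -0.25. In SMP8-IL4R minus WT all 4 calls were lost when either SMP8-IL4R pool or either WT pool was left out. Those of Ighm and Ighg3 were also lost with the median probe set, and that of Igha with the replicate block.

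**Figure D4:**
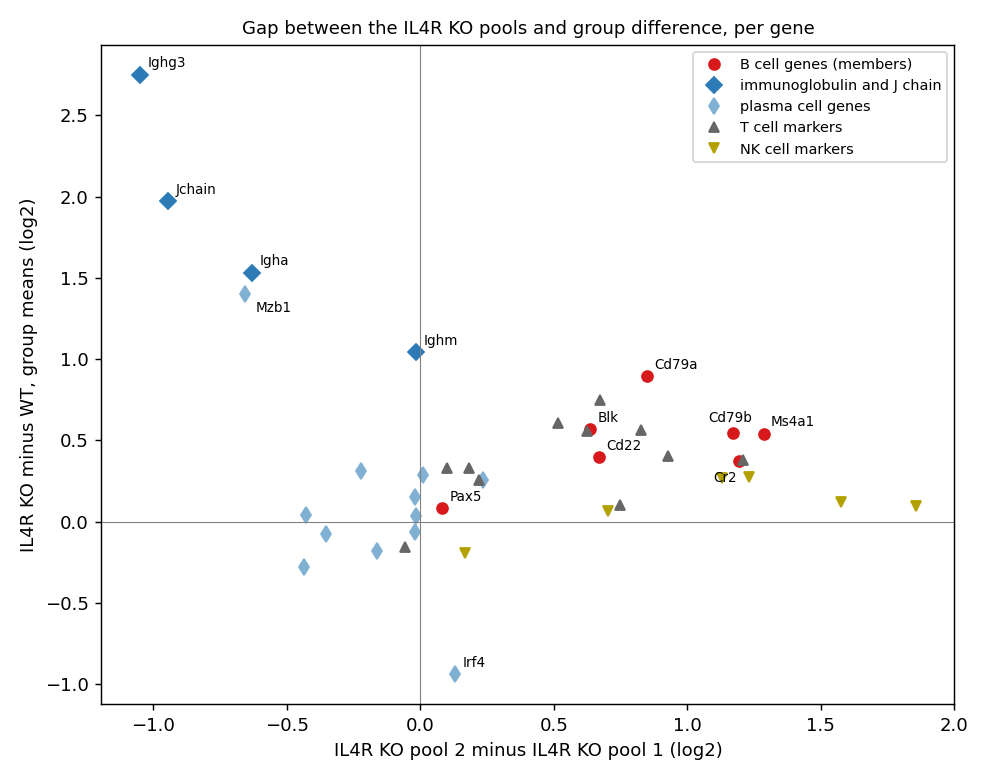
For each gene at its brightest probe set, the gap between the 2 IL4R KO pools (x axis, log2, pool 2 minus pool 1) against the difference of the group means, IL4R KO minus WT (y axis, log2). The 7 B cell genes have gaps of 0.08 to 1.29 and differences of 0.08 to 0.89, whereas the 4 immunoglobulin genes and Mzb1 have gaps below 0 and differences above 1; the 2 axes share the IL4R KO arrays.

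Among 12 plasma cell genes other than immunoglobulins, 1 was higher and 1 lower in IL4R KO than in WT lungs. Mzb1, a chaperone of IgM assembly in plasma cells and marginal zone B cells, read 9.64 and 9.71 in SMP8-IL4R, 10.21 and 9.56 in IL4R KO, and 8.51 and 8.46 in WT lungs. Its pattern over the IL4R KO pools was that of Ighg3, Jchain and Igha, with pool 2 lower by 0.66. It rose by 1.40 in IL4R KO (adjusted p = 0.024 in limma) and stood at 1.20 in SMP8-IL4R minus WT (adjusted p = 0.0506). The call in IL4R KO lungs was lost with only the 4 arrays compared and when either SMP8-IL4R pool or either WT pool was left out.

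Irf4, a factor that plasma cells need and that T cells and macrophages also express, fell by 0.94 in IL4R KO and by 0.96 in SMP8-IL4R lungs (adjusted p = 0.0071 and 0.0080 in limma); its other probe set stood at -0.45 and -0.51 and did not pass. Both calls of Irf4 were lost when either WT pool was left out, that in IL4R KO lungs also without the liver-bearing arrays and that in SMP8-IL4R lungs also without either SMP8-IL4R pool. Prdm1 (BLIMP-1), Xbp1 and Sdc1 (CD138), which define the plasma cell programme, differed by 0.26, -0.07 and 0.28 in IL4R KO minus WT, and did not pass. Xbp1 and Sdc1 are also expressed by lung epithelium. The median over the 12 genes was 0.038.

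Genes of the lymphoid follicle gave a mixed picture. Tnfsf13b, which encodes the B cell survival factor BAFF, read 9.57 and 9.67 in SMP8-IL4R, 9.42 and 9.59 in IL4R KO, and 10.20 and 10.19 in WT lungs. It fell by 0.69 in IL4R KO and by 0.57 in SMP8-IL4R lungs against WT (adjusted p = 0.018 and 0.040 in limma), while its receptor on B cells, Tnfrsf13c, stood at 0.43 in IL4R KO minus WT (adjusted p = 0.371). Both calls of Tnfsf13b were lost without the liver-bearing arrays and when either SMP8-IL4R pool or either WT pool was left out. The call in IL4R KO lungs was also lost with only the 4 arrays compared, and that in SMP8-IL4R lungs with the replicate block. Cxcl13, the chemokine that draws Cxcr5-bearing B cells into follicles, read 9.93 and 9.45 in SMP8-IL4R, 10.49 and 9.44 in IL4R KO, and 8.34 and 8.32 in WT lungs. Its difference of 1.63 in IL4R KO minus WT had an adjusted p of 0.075 in limma. Its gap between the IL4R KO pools, -1.05, ran with Ighg3, Jchain and Igha and not with Cxcr5.

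Markers of other lymphocytes moved with the 7 genes between the IL4R KO pools. Of 11 T cell markers, 10 were higher in IL4R KO pool 2 than in pool 1 and the same number had their highest value there. Of 6 NK cell markers, 6 were higher in pool 2, by a median of 1.18, and Gzma, a cytotoxic protease, read 10.44 and 10.41 in SMP8-IL4R, 9.51 and 11.36 in IL4R KO, and 10.38 and 10.29 in WT lungs. Log2 of the summed T cell signal was 11.23 and 11.19 in SMP8-IL4R, 11.19 and 11.73 in IL4R KO, and 10.98 and 11.14 in WT lungs. For NK markers it was 11.11 and 11.07 in SMP8-IL4R, 10.37 and 11.93 in IL4R KO, and 11.03 and 11.00 in WT lungs. None of these markers passed in any comparison in limma with all 6 arrays, and 6 T cell and 0 NK cell markers had an unadjusted p under 0.05 in IL4R KO minus WT; without IL4R KO pool 1, 4 T cell and 4 NK cell markers passed higher than WT. Without IL4R KO pool 2, 0 T cell markers passed, and of the NK cell markers 0 passed higher and 2 lower, Ncr1 and Gzma, with a median of -0.32 over the 6. Adipocyte genes, in contrast, were high in both IL4R KO pools: all 4 measured rose against WT, led by Adipoq at 1.93 (adjusted p = 0.0013 in limma), and none passed in SMP8-IL4R minus WT, at 0.53 to 0.66 (all 4 at an unadjusted p under 0.05). How lymphocyte number, liver or fat RNA, or sex mix of the pools bears on the B cell genes was not tested.

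**Figure D5:**
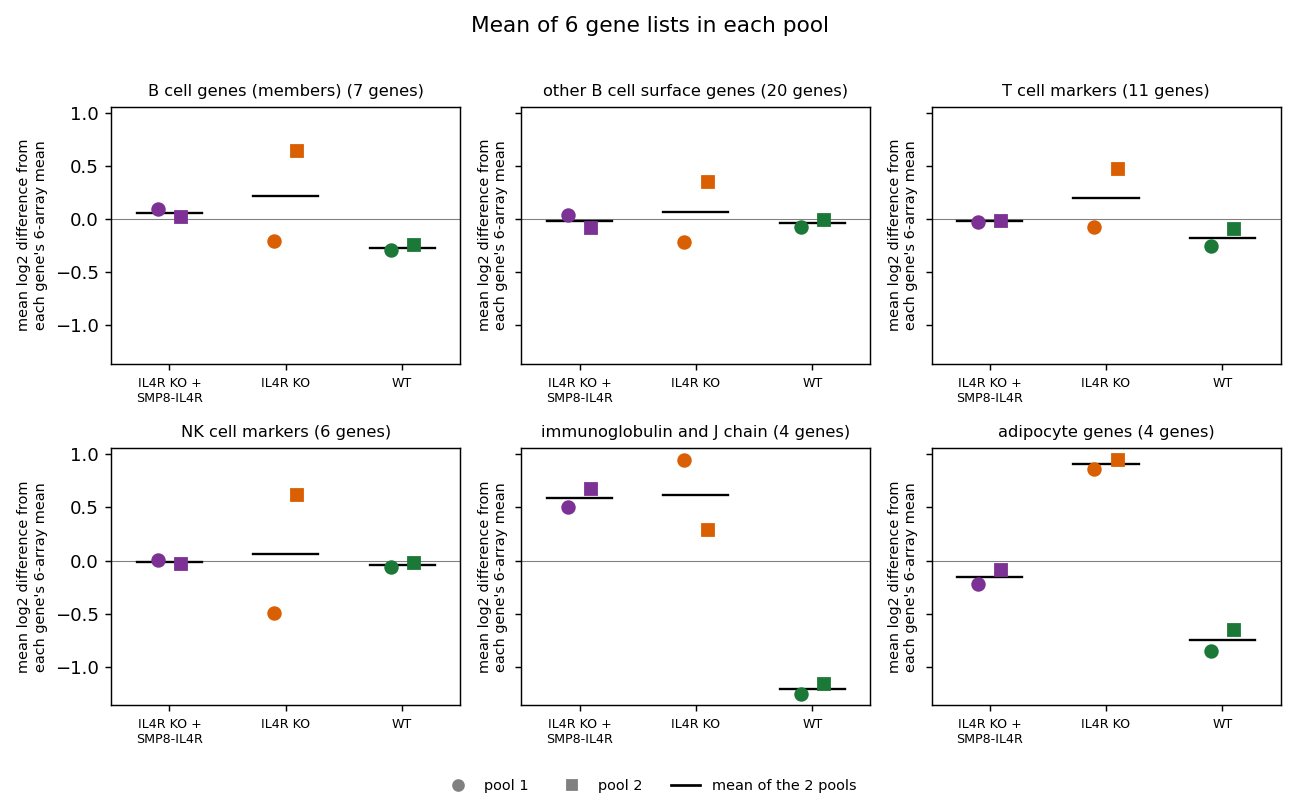
Mean of each list in each pool, as the log2 difference from each gene's mean over the 6 arrays; circles are pool 1, squares pool 2, bars the mean of the 2 pools. B cell, T cell and NK cell lists are high in IL4R KO pool 2 and apart from pool 1, immunoglobulin genes are higher in pool 1 than in pool 2, and adipocyte genes are high in both IL4R KO pools.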

How the data were processed

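Whole-lung RNA of 6 pools was read on Affymetrix mouse genome arrays. The deposited values are log2 signals per probe set made with RMA, per the submitters' processing notes; its version and the annotation are not given in the sources used here. RMA shares quantiles across arrays, so levels are relative. Samples were grouped by their genotype labels. After 64 control probe sets were left out, limma 3.58.1 (R 4.3.3; lmFit and eBayes without trend) was fitted to 45037 probe sets and all 6 arrays with 1 mean per group, no filter on low values and Benjamini-Hochberg adjustment. The fit was tested on simulated data. The platform table gave 1 gene symbol to 34945 probe sets, several to 932 and none to 9160. A gene outside the 7 is represented by its brightest probe set (highest mean over the arrays). Named genes are every probe set of the 7, up to 4 genes with the lowest p in IL4R KO minus WT for each list, and the 10 genes most like the 7; any other gene with values was chosen after these were seen. Members and lists were chosen with earlier results of these data known, and the lung list after the data were seen. Replicate numbers do not pair the samples: deviations of the pools numbered alike correlated at 0.053, -0.346 and -0.067 between the groups. With 2 pools against 2, an exact permutation test cannot go below p = 0.333. The number of arrays limits precision.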

Additional observations from a re-analysis of the deposited data

How the results depend on the processing

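The Y-linked covariate, a mean of 3 genes, was low on IL4R KO pool 2 alone (-3.55 when centred, against 0.22 to 1.03 elsewhere). Adding it is close to leaving that array out, so the 0 passing B cell probe sets with it in IL4R KO minus WT are no separate check. That count of 0 held when dim probe sets were left out, with 1 probe set per gene and with the median probe set. It also held with an intensity trend, with only the 4 arrays compared, with arrays centred or quantile-normalised again and with the replicate block. It was 7 without both arrays that held liver transcripts, a fit whose spread comes from the SMP8-IL4R pools alone, and 0 to 8 when 1 array was left out, the 8 without IL4R KO pool 1. The median difference of 0.54 became 1.01 without the liver-bearing arrays and 0.067 with the Y-linked covariate, and 0.043 to 0.97 with 1 array left out. For SMP8-IL4R minus IL4R KO the median of -0.14 became -0.60 without the liver-bearing arrays, and -0.60 to 0.20 with 1 array left out. For SMP8-IL4R minus WT the count of 0 became 2 with only the 4 arrays compared (Cd79a, 0.55, and Ms4a1 at 1450912_at, 0.73), beside 2.36% of all probe sets. Without the liver-bearing arrays Ms4a1 at 1450912_at stood at 0.87 in that comparison. Ighm reversed to -0.25 in IL4R KO minus WT with the median of its probe sets. The numbers do not pair the samples; the replicate block left the medians at 0.54, -0.14 and 0.29 and 0 B cell probe sets passing, and cut the calls of IL4R KO minus WT to 610 among all probe sets, from 710. The count over all probe sets in IL4R KO minus WT ranged from 127 without WT pool 1 to 1401 without IL4R KO pool 2, with 322 in the 4 arrays compared, 1075 with an intensity trend and 1373 with the Y-linked covariate; in SMP8-IL4R minus WT, 470 became 1064 in the 4 arrays compared, 732 with the trend, 1042 with the covariate and 102 without WT pool 1. In IL4R KO minus WT these moved the higher calls from 260, beside 450 lower, to 742 beside 659 without IL4R KO pool 2 and to 709 beside 664 with the covariate. In SMP8-IL4R minus IL4R KO, 7 became 0 to 96 with 1 array left out. Calls of Igha, Ighg3 and Jchain were lost with the trend. The cause of these shifts was not tested; the settings without an array use fewer samples. Dim signal limits Pax5, which stayed under the median of all values.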
